A study of Homo sapiens with 38 samples.

Results

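ALDH1A2, TRIB2, ARID5B and HHEX, 4 genes described as targets of the TAL1 transcription factor complex in T-cell leukaemia, were examined for GATA3, BHLHE40 and H3K27ac in stimulated Jurkat cells. They were chosen by name, as 4 of 20050 protein-coding genes in the RefSeq GRCh38 table, and every listed region within the gene record plus 50 kb on each side was taken. This gave 44 of 29009 GATA3 regions, 28 of 26205 BHLHE40 regions and 86 of 113570 H3K27ac regions. ARID5B alone held 32, 19 and 56 of these, so sums over the 4 genes are mostly sums over ARID5B, and each gene is described on its own.

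The series profiled chromatin of Jurkat, an established clonal human line of T-cell acute lymphoblastic leukaemia, by chromatin immunoprecipitation and sequencing (ChIP-seq), with 38 samples in 19 groups of 2. The 3 groups used here carried a control lentivirus (Ctrl_LV) and were precipitated with antibodies to GATA3, BHLHE40 or the histone mark H3K27ac. The cells of all 3 groups received the T-cell stimulants PMA (50 ng/ml) plus ionomycin (500 ng/ml), for 5 hours by the sample labels and 2 hours by the treatment protocol, which also gives polybrene and puromycin for the lentivirus step. Each group was represented by 1 list of peaks, so no value per sample, no replicate spread and no test is given. The other 16 groups, among them TAL1 ChIP-seq, cells with the guide constructs sgCtrl and sg70 and cells with a BHLHE40 lentivirus, were not analysed here. How deeply each group was sequenced is unknown, so the depth behind each region cannot be given.

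TAL1 is a basic helix-loop-helix protein that is silent in mature T cells and is switched on in many T-cell leukaemias. It binds E-box DNA, with the letters CANNTG, as a partner of the E proteins TCF3 and TCF12, and acts in a complex with LMO and LDB1 proteins, GATA3, RUNX1 and MYB. GATA3, which binds the letters GATA, is thus a member of the complex, whereas BHLHE40, a repressor induced by T-cell activation, is a helix-loop-helix protein with a preference for the E-box CACGTG. H3K27ac marks active promoters and enhancers. ALDH1A2 makes retinoic acid from retinaldehyde, TRIB2 is a pseudokinase that acts as a scaffold for protein degradation, ARID5B is a DNA-binding protein with an AT-rich interaction domain, and HHEX is a homeodomain factor of early blood and endothelial development.

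The RefSeq table gave 6 transcription starts for the 4 genes: 2 for ALDH1A2, 2 for ARID5B and 1 each for TRIB2 and HHEX. The 2 starts of a gene are called outer and inner here, the outer being the end of the gene record. The 250 bases before 5 of the starts are shown because the lists differed there: the inner ALDH1A2 start was the only one of the 6 at which all 3 lists covered most of the window, and the outer ALDH1A2 start was free of all 3. Sequences are from RefSeq, GRCh38.p14, 5′ to 3′ on the strand of the gene, and capitals mark the letters GATA or CANNTG on either strand.
ALDH1A2 inner start, chr15:58014024-58014273, minus strand: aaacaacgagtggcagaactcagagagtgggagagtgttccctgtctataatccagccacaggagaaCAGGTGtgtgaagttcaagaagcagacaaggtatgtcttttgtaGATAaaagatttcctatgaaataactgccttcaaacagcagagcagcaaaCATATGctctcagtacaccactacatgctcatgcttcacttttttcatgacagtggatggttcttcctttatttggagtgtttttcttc
ALDH1A2 outer start, chr15:58065712-58065961, minus strand: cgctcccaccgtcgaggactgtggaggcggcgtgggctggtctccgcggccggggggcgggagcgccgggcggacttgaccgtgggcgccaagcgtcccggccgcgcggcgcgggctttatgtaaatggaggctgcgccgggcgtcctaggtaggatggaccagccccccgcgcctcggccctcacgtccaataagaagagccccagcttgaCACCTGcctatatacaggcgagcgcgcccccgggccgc
TRIB2 start, chr2:12716686-12716935, plus strand: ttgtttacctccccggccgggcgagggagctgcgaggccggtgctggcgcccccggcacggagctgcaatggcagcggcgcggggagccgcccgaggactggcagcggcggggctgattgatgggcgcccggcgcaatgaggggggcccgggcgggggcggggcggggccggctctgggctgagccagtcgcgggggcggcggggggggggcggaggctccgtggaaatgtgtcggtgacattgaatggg
ARID5B outer start, chr10:61901449-61901698, plus strand: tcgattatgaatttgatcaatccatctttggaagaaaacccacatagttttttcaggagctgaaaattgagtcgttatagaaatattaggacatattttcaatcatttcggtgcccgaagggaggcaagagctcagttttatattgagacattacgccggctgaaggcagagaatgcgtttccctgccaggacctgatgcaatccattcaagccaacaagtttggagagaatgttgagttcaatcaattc
HHEX start, chr10:92689705-92689954, plus strand: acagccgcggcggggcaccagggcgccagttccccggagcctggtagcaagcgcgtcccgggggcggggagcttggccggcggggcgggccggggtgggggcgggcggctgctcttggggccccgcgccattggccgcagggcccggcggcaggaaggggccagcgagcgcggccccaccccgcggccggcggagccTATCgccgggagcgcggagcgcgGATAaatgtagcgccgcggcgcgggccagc

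The inner ALDH1A2 sequence held the E-box CAGGTG, beginning 183 bases before the start, the E-box CATATG at 89 bases and GATA at 139 bases. The BHLHE40 summit lay 206 bases before this start, 26 bp from the centre of CAGGTG. The GATA3 summit lay at the first base shown, 112 bp from the centre of GATA. All 3 letter matches lay inside both the GATA3 and the BHLHE40 region. The outer ALDH1A2 sequence held the E-box CACCTG, 38 bases before the start and 51518 bp from the nearest BHLHE40 summit. HHEX held 2 GATA matches, read as TATC and GATA at 53 and 30 bases before its start, and both lay outside every GATA3 region. The TRIB2 sequence and the sequences before both ARID5B starts, of which the outer is shown, held neither GATA nor CANNTG. The TRIB2 sequence lay wholly inside a BHLHE40 region 2161 bp wide. The summit of that region lay 273 bp before the start, outside the 250 bases searched, and most of the region was not searched. Over the 250 bases before 35116 RefSeq starts, GATA or TATC was found at 45.6%, CANNTG at 61.8% and CACGTG at 6.34%. TGTGGT or ACCACA, letters bound by RUNX factors, was found at 11.0%, and GGAA or TTCC, bound by ETS factors, at 92.7%. CACGTG and TGTGGT or ACCACA were in none of the 6 member sequences, and GGAA or TTCC was in 5 of 6, all but the outer ALDH1A2 start. These matches describe letters in a short window and are not measured binding sites. CACGTG is itself one of the CANNTG letters.

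The lists themselves were also compared with the starts, over windows from 250 bp before to 50 bp after each start. GATA3 covered 2 of the 6 windows (14.0% of 35116 windows over all genes), BHLHE40 covered 4 (32.6%), and H3K27ac covered 3 (35.7%), namely the inner ALDH1A2, TRIB2 and outer ARID5B windows. All 3 lists met at the inner ALDH1A2 start and the outer ARID5B start, 2 of 6 (12.7% over all genes). At the inner ALDH1A2 start the lists covered 275, 300 and 252 bp of the 300 bp window, in the order GATA3, BHLHE40, H3K27ac. At the outer ARID5B start they covered only 142, 197 and 150 bp. The GATA3 and BHLHE40 regions that reached this window had their summits 2404 and 2381 bp before the start. TRIB2 had BHLHE40 over all 300 bp, H3K27ac over 68 bp and no GATA3. HHEX had BHLHE40 over 41 bp and neither other list.

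All 4 gene windows held regions of all 3 lists, but so did most genes. At least 1 GATA3 region was found in 76.1% of the 20050 protein-coding windows, at least 1 BHLHE40 region in 80.0%, at least 1 H3K27ac region in 92.6%, and all 3 in 69.7%. GATA3 overlapping BHLHE40 was found at all 4 genes and in 60.5% of windows over all genes. A place with GATA3, BHLHE40 and H3K27ac together was found at all 4 genes and in 55.2% of windows over all genes. Presence alone therefore did not set the 4 genes apart, and the number and strength of regions are given below.

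The number of GATA3 regions was 3 at ALDH1A2, 6 at TRIB2, 32 at ARID5B and 3 at HHEX, against a median of 2 over protein-coding genes. Of 20050 windows, 9 held as many as ARID5B or more, ARID5B included, and 63.7% held fewer than ALDH1A2 or HHEX. The number of BHLHE40 regions was 1, 5, 19 and 3 in the same order, against a median of 2. H3K27ac regions numbered 9, 13, 56 and 8, against a median of 8. ARID5B was the richest of the 4 genes in each list and ALDH1A2 was the poorest in BHLHE40, where 20.0% of protein-coding genes, or 38.7% of all gene records, held fewer regions.

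The windows differ in length, from 105.7 kb at HHEX to 295.2 kb at ARID5B, so densities were compared as well. GATA3 density was 1.41 regions per 100 kb at ALDH1A2, 2.84 at HHEX, 4.77 at TRIB2 and 10.8 at ARID5B, with a median of 0.992 over all genes. ARID5B exceeded 99.8% of genes by this measure, TRIB2 95.0%, HHEX 82.5% and ALDH1A2 55.6%. BHLHE40 density followed the same order, at 0.471, 2.84, 3.97 and 6.44 regions per 100 kb against a median of 1.62. So did H3K27ac density, at 4.24, 7.57, 10.3 and 19.0 against a median of 5.91. The order of the 4 genes was thus the same in the 3 lists, and per 100 kb ALDH1A2 lay below the median gene for BHLHE40 and H3K27ac.

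**Figure D1:**
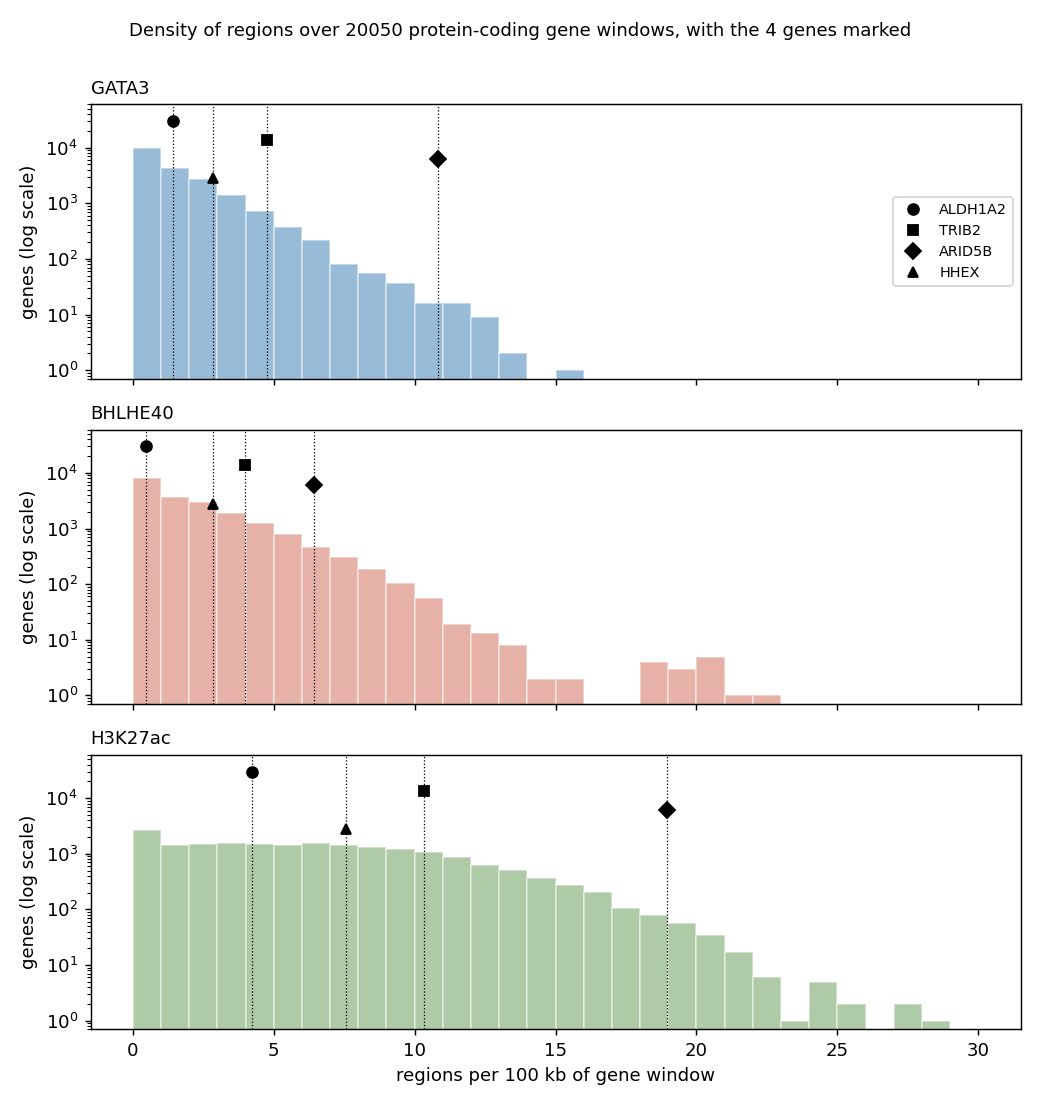
Number of protein-coding genes (y axis, log scale) by regions per 100 kb of the gene window (x axis, bins of 1) for GATA3, BHLHE40 and H3K27ac, with a dotted line and a symbol for each of the 4 genes (the height of a symbol has no meaning). ARID5B lies in the far tail for GATA3 (10.8) and H3K27ac (19.0), while ALDH1A2 lies among the commonest values in each list.

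ALDH1A2 is transcribed from the minus strand of chromosome 15, with a record from 57953429 to 58065711 (112.3 kb). Its window held 1 BHLHE40 region, at the inner start, which lies 51.7 kb downstream of the outer one, and 3 GATA3 regions, 2 of them inside the gene. The single place with both factors was the inner start. The GATA3 region at chr15:58013999-58014458 had a signal value of 12.6, the authors' own measure of enrichment per peak, and ranked 12387 of 29009. The BHLHE40 region at chr15:58013974-58014468 had a signal value of 10.5 and ranked 11036 of 26205. Both are thus near the middle of their lists, and their summits lay 44 bp apart. An H3K27ac region at chr15:58013958-58014225 had its summit 9 bp from the start. It was weak, with a signal value of 2.71, a −log10 q of 2.59 and rank 96864 of 113570.

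The strongest GATA3 region of the ALDH1A2 window lay 5504 bp downstream of the inner start, at chr15:58008081-58008753. It had a signal value of 17.7 (rank 7779), no BHLHE40, and an H3K27ac summit 44 bp away. The third GATA3 region, at chr15:58070899-58071340 with a signal value of 7.33, lay 5356 bp before the outer start, inside the record of the antisense gene ALDH1A2-AS1, and overlapped neither other list. The nearest BHLHE40 summit was 51482 bp from the outer start, and the nearest H3K27ac summit was 27980 bp away.

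H3K27ac was weak throughout the ALDH1A2 window. The 9 regions had signal values from 2.61 to 3.57 and −log10 q values from 1.43 to 4.50, so none reached a −log10 q of 5, whereas 79.5% of protein-coding windows held at least 1 such region. Only 14.8% of genes had a lower highest H3K27ac signal value. The 3 strongest lay at chr15:57969454-57969686 (signal value 3.57), chr15:58101827-58102006 (3.31) and chr15:58008356-58008575 (3.13), and only the last of them overlapped GATA3.

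TRIB2 is transcribed from the plus strand of chromosome 2, with a record from 12716936 to 12742734 (25.8 kb). Summits of 3 of the 6 GATA3 regions and 4 of the 5 BHLHE40 regions lay before the start. With 10 kb on each side the window held only 3 GATA3, 3 BHLHE40 and 7 H3K27ac regions. Signal values ranged from 5.34 to 46.1 for GATA3 and from 6.92 to 22.3 for BHLHE40. All 5 BHLHE40 regions overlapped GATA3, beside 53.0% of the whole BHLHE40 list. The strongest GATA3 region, at chr2:12728078-12728959, lay inside the gene 11.6 kb after the start, with a signal value of 46.1 and rank 1694 of 29009. The next, at chr2:12702139-12703092, lay 14.5 kb before the start with a signal value of 40.0 (rank 2221). Another 2, at chr2:12695238-12695902 and chr2:12761053-12761538, had signal values of 31.2 and 21.2. The first of these lay 21.3 kb before the start and the second 18.6 kb beyond the far end of the gene.

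BHLHE40 ordered the same TRIB2 places differently. Its strongest region, at chr2:12701990-12703065, 14.5 kb before the start, had a signal value of 22.3 and rank 2523 of 26205. The region at chr2:12728232-12728805, beneath the strongest GATA3 region, was the weakest of the 5, with a signal value of 6.92 and rank 19200. Between these came chr2:12708935-12709783, 7.64 kb before the start (signal value 13.2), chr2:12715835-12717995 at the start itself (12.5) and chr2:12695340-12695881 (8.97). Summits of the factors lay 35, 34, 6, 901 and 114 bp apart, from the most upstream place to the most downstream. The distance of 901 bp belongs to the start, where the BHLHE40 region was 2161 bp wide with a summit 273 bp before the start and the GATA3 region, with a signal value of 5.34, peaked 628 bp after it.

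H3K27ac accompanied 4 of the 5 shared TRIB2 places, all but the one 21.3 kb upstream. Over the whole list it accompanied 10927 of 14123 shared GATA3 regions. The strongest H3K27ac regions were at the start, chr2:12716152-12716737 (signal value 5.89, −log10 q 25.8), in the gene at chr2:12727897-12728956 (5.78, 17.4), and upstream at chr2:12708777-12710074 (4.99, 20.4). Of the 13 H3K27ac regions, 5 reached a −log10 q of 5, beside 25.1% of the whole list, and all 5 overlapped a GATA3 or BHLHE40 region, beside 70.0% of all regions past that threshold. The places upstream of the start, from 14.5 kb to the start, lie within the record of the uncharacterised noncoding gene LOC124905974, so that the regions there cannot be assigned to one of the 2 genes by position.

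ARID5B is transcribed from the plus strand of chromosome 10, with a record from 61901699 to 62096944 (195.2 kb) and an inner start 147.7 kb after the outer one. GATA3 was spread along the whole gene: 27 of its 32 summits lay inside the record, which makes up 195.2 kb of the 295.2 kb window. The 32 summits ran from 2.40 kb before the outer start to 207.2 kb after it, with a median spacing of 5.00 kb and no gap above 19.8 kb. Of the 19 BHLHE40 regions, 15 had summits inside the record and 17 overlapped GATA3, beside 53.0% of the whole BHLHE40 list. GATA3 regions covered 10.2% of the window, BHLHE40 regions 5.80% and H3K27ac regions 6.46%.

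The strongest GATA3 and BHLHE40 regions of ARID5B coincided. The GATA3 region at chr10:61950662-61951223, 49.2 kb after the outer start, had a signal value of 71.5 and ranked 664 of 29009. The BHLHE40 region at chr10:61950679-61951219 had a signal value of 24.1 and ranked 2117 of 26205, and its summit lay 4 bp away. An H3K27ac summit lay 44 bp from the GATA3 summit. The acetylated region was weak, with a signal value of 2.65, a −log10 q of 2.60 and rank 99394 of 113570, and was not among the 3 strongest of the window.

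The next GATA3 regions of ARID5B lay in the last part of the gene and beyond it. The region at chr10:62045939-62047002, 145.0 kb after the outer start and not far before the inner one, had a signal value of 52.3 (rank 1351), a BHLHE40 summit 5 bp away and no H3K27ac. The region at chr10:62081655-62083149, 181.1 kb after the outer start, had a signal value of 45.2 (rank 1755), a BHLHE40 summit 2 bp away and strong H3K27ac. The region at chr10:62108629-62109242, 12.0 kb beyond the gene, had a signal value of 34.0 (rank 2920), a BHLHE40 summit 26 bp away and H3K27ac. So 3 of the 4 strongest GATA3 places carried all 3 lists, and the other lacked the mark. Of all 32 GATA3 regions of the window, 9 (28.1%) carried all 3 lists, beside 37.7% of the whole GATA3 list. That share covers weak and strong regions alike, so it is no measure for places picked by signal value. At the strongest place the H3K27ac region did not reach a −log10 q of 5.

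The other strong BHLHE40 regions of ARID5B were at chr10:62082190-62083151 (signal value 16.3, rank 4934), chr10:61898581-61901645 (16.2, rank 5020) and chr10:61967021-61967952 (14.8, rank 6013). The second of them had its summit 2381 bp before the outer start. All of these regions overlapped GATA3, with summits 2, 23 and 2 bp apart. Most BHLHE40 regions were below the middle of their list: 7 of 19 exceeded its median signal value of 9.35, where by definition 50.0% of the list does. For GATA3, 18 of 32 exceeded the list median of 11.2. The weakest GATA3 region, at chr10:62106821-62107033, ranked 29002 of 29009 with a signal value of 1.81 and a −log10 q of 0.799.

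GATA3 without BHLHE40 made up 15 of the 32 regions. The longest stretch of ARID5B without a BHLHE40 summit, 42.8 kb from 61981699 to 62024513, held 6 such GATA3 regions with signal values from 6.45 to 23.7, and 2 of them overlapped H3K27ac. Over the whole window the 15 had a median signal value of 9.97, with a highest value of 29.4, and the 17 shared ones had a median of 22.6. Over the whole GATA3 list the medians were 10.1 without BHLHE40 and 13.9 with it. At ARID5B, as over the list, shared regions thus had the higher median. The ranges at ARID5B overlapped, from 5.01 to 71.5 with BHLHE40 and from 1.81 to 29.4 without it.

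H3K27ac at ARID5B was made of many small regions with a few strong ones. Of 56 regions, 14 (25.0%) reached a −log10 q of 5, against 25.1% of the whole list, and 11 of the 14 overlapped a factor region, beside 70.0% of all such regions of the list. The strongest, at chr10:61901165-61901598, lay at the outer start with a signal value of 5.97 and a −log10 q of 100.1. It was followed in signal value by chr10:62108527-62109472 beyond the gene (5.43, 19.3) and chr10:62082233-62083595 (5.10, 39.3). By −log10 q the region beyond the gene came after 2 regions near the outer start, chr10:61898930-61900222 (3.18, 24.6) and chr10:61903290-61903742 (2.99, 21.0). The inner start lay in none of the regions: the nearest H3K27ac summit was 343 bp away and the nearest GATA3 and BHLHE40 summits were 1807 and 1881 bp away.

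HHEX is transcribed from the plus strand of chromosome 10, with a record from 92689955 to 92695647 (5.69 kb). It held 3 GATA3 regions and 3 BHLHE40 regions, each GATA3 region paired with a BHLHE40 region, and H3K27ac at all 3 places. These counts depend on the window: with 100 kb on each side HHEX held 7 GATA3, 6 BHLHE40 and 19 H3K27ac regions. The places lay at 0.940, 8.21 and 22.7 kb after the start, the first inside the gene and the others 2.52 and 17.1 kb beyond its end. The upstream 50 kb held neither factor.

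The strength of the factors ran in opposite order along HHEX. The GATA3 signal value was 16.1 at chr10:92690457-92691106 near the start, 38.3 at chr10:92697789-92698777 and 67.2 at chr10:92712354-92712995, with ranks 8917, 2409 and 772. The BHLHE40 signal value at the same 3 places was 26.0 at chr10:92689964-92691189, 12.9 at chr10:92697805-92698391 and 7.03 at chr10:92712398-92712902, with ranks 1841, 7721 and 18845. GATA3 thus rose in rank away from the start and BHLHE40 fell. The summits lay 4, 2 and 9 bp apart.

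H3K27ac at HHEX was modest. The 8 regions had signal values from 2.50 to 4.20, and 22.0% of protein-coding genes had a lower highest value. The strongest, at chr10:92643903-92644774 (4.20, −log10 q 7.55), lay inside KIF11, the kinesin gene next to HHEX, with neither factor. The next lay at chr10:92691027-92691275 (4.11, 5.96) and chr10:92690244-92690495 (4.03, 5.77), to either side of the summits near the HHEX start. The acetylated regions beneath the 2 downstream places were weak, and none of them reached a −log10 q of 5.

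**Figure D2:**
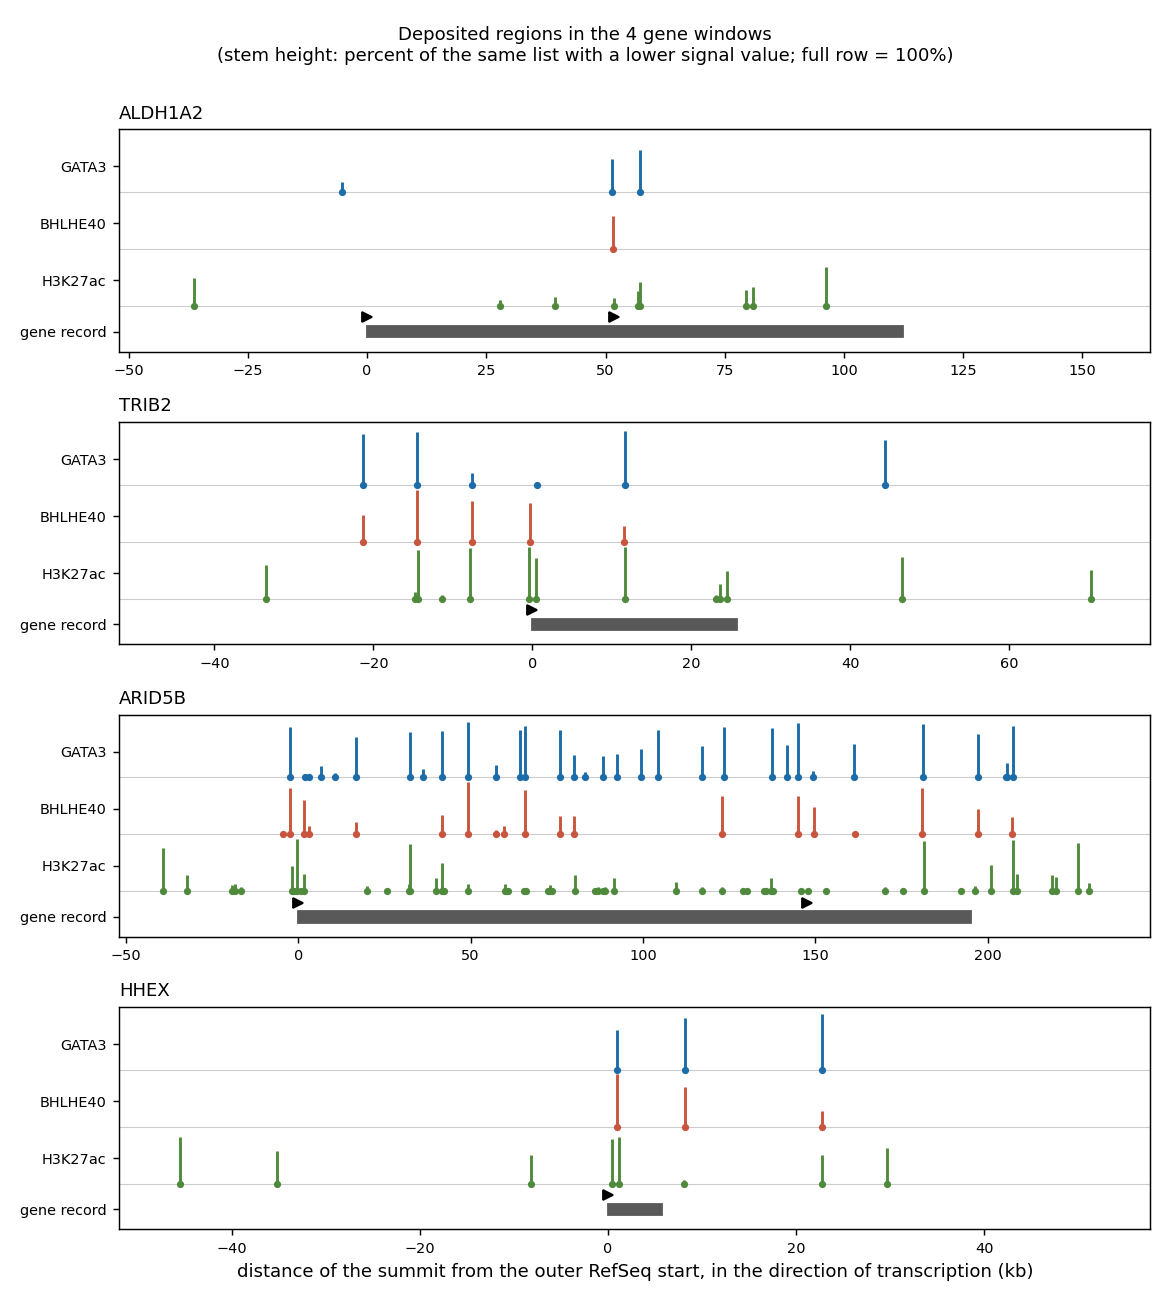
Summits of GATA3, BHLHE40 and H3K27ac regions by distance from the outer start in the direction of transcription (x axis, kb), in 1 panel per gene with the gene record as a grey bar and RefSeq starts as arrowheads. The height of each stem is the percent of the same list with a lower signal value, on a scale of 0 to 100% per row: ALDH1A2 has its single shared place at the inner start, ARID5B has 32 GATA3 summits along the gene, and at HHEX GATA3 and BHLHE40 stems run in opposite order.

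Across the 4 genes, the overlap of the lists was uneven. GATA3 regions overlapped BHLHE40 in 26 of 44 cases (59.1%, exact 95% interval 43.2% to 73.7%), beside 48.7% of the whole GATA3 list. By gene this was 1 of 3 at ALDH1A2, 5 of 6 at TRIB2, 17 of 32 at ARID5B and 3 of 3 at HHEX. In the other direction, 26 of 28 BHLHE40 regions overlapped GATA3 (92.9%, interval 76.5% to 99.1%), beside 53.0% of the whole BHLHE40 list, and both exceptions lay at ARID5B. BHLHE40 without GATA3 was therefore rare in these windows, at 2 of 28 regions. Intervals cover counting only, and neighbouring regions of a gene are not independent, so no test of these shares was made.

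H3K27ac overlapped 22 of the 44 GATA3 regions (50.0%, interval 34.6% to 65.4%), beside 49.1% of the whole list. It overlapped 18 of the 28 BHLHE40 regions (64.3%, interval 44.1% to 81.4%), beside 76.4% of the whole list. At ARID5B these counts were 13 of 32 and 10 of 19. There, 8 of the 17 shared GATA3 regions had no H3K27ac, beside 3196 of 14123 shared GATA3 regions over the whole list. Over the 4 genes, GATA3 with BHLHE40 and without H3K27ac made up 9 of 44 (20.5%), beside 11.0% of the whole list, and GATA3 with neither made up 13 of 44 (29.5%), beside 39.9%. When only H3K27ac regions past a −log10 q of 5 were counted, the overlaps were 27.3% for GATA3, beside 33.4% of the whole list, and 39.3% for BHLHE40, beside 60.2%.

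Summits of the factors lay close together at the shared places. The distance was at most 10 bp at 12 of 26 places (19.5% of 14123 shared places over the whole list) and at most 50 bp at 20 of 26 (61.5%). The median was 17 bp (exact binomial 95% interval of the median 5 to 40 bp), beside 35 bp over the whole list, which lies inside the interval. The interval takes the 26 places as independent, although 17 of them lie in the ARID5B window, and no test was made. At ARID5B 8 of 17 lay within 10 bp, and at chr10:61981489-61981882 the summits were at the same base. The largest distances, 901 bp at the TRIB2 start and 761 bp in ARID5B at chr10:62024087-62026716, belonged to wide regions (BHLHE40 2161 bp, GATA3 2630 bp).

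**Figure D3:**
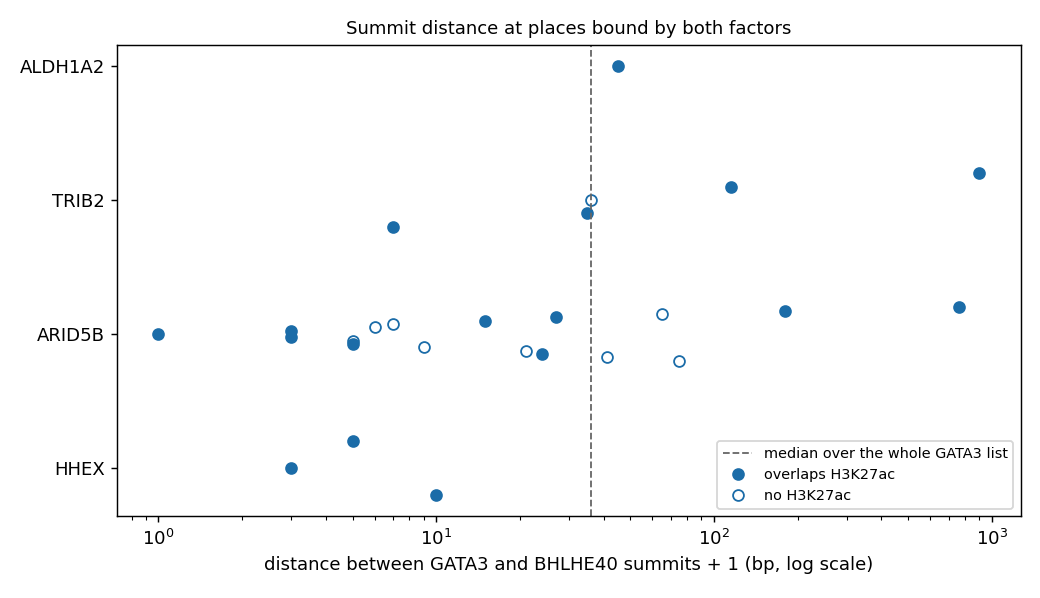
Distance between the GATA3 summit and the nearest BHLHE40 summit plus 1 bp (x axis, log scale) at the 26 shared places of the 4 genes (rows, points spread vertically for legibility), filled where the GATA3 region overlapped H3K27ac. The dashed line is the whole-list median of 35 bp; the 3 HHEX places lie at 2 to 9 bp and the places of TRIB2 range from 6 to 901 bp.

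In signal value, GATA3 was strong at 3 of the 4 genes. The highest GATA3 signal value in the window was 17.7 at ALDH1A2, 46.1 at TRIB2, 67.2 at HHEX and 71.5 at ARID5B, which exceeded 61.8%, 88.8%, 94.5% and 95.2% of protein-coding genes. The highest BHLHE40 signal value was 10.5, 22.3, 26.0 and 24.1 in the same order, exceeding 39.0%, 78.8%, 84.3% and 81.7%. For H3K27ac the highest signal values of 3.57, 5.89, 4.20 and 5.97 exceeded 14.8%, 34.8%, 22.0% and 35.4% of genes. Signal value and −log10 q order H3K27ac regions differently. The same −log10 q of 2.58 went with a signal value of 3.31 at HHEX and 2.15 at ARID5B. The highest −log10 q was 4.50, 25.8, 7.55 and 100.1 in the same order of genes, and genes were not ranked by it. Regions in the highest 10% of their list were found at TRIB2, ARID5B and HHEX for GATA3 (17.9% of protein-coding windows held one) and for BHLHE40 (21.9%), and at TRIB2 and ARID5B for H3K27ac (68.7%). Values of different lists are not on a common scale and are set here only against other genes of the same list. The highest value of a window can rise with its length, from 105.7 kb at HHEX to 295.2 kb at ARID5B, and with its number of regions. The percentages of genes exceeded were not adjusted for either.

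Another 10 genes were taken for comparison. They were the genes of the complex, namely TAL1, its E-protein partners TCF3 and TCF12, the LIM-domain genes LMO1 and LMO2, the adaptor LDB1, GATA3, RUNX1 and MYB, and in addition ETS1, a T-cell transcription factor not named above as part of the complex. All 10 held a place with all 3 lists, as did the 4 members, beside 55.2% of protein-coding windows. RUNX1 held 33 GATA3 and 29 BHLHE40 regions, the most GATA3 regions of the 10 and 1 more than ARID5B, while LMO1 held 1 of each. The median GATA3 density was 4.46 regions per 100 kb over the 10 genes and 3.80 over the 4 members. TAL1 held 5 regions of each factor and 23 of H3K27ac. GATA3 density ranged from 0.692 to 10.2 over these 10 genes and from 1.41 to 10.8 over the members, and no test of a difference was made.

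Likeness to other genes was measured over 6 values per window, the number of regions and the highest signal value in each list, as the mean difference in percentile rank over all protein-coding genes. The nearest to ARID5B were IKZF2, a zinc-finger gene of the Ikaros family, at 1.54 percentile points, and SERINC5 at 2.12. IKZF2 held 23 GATA3, 15 BHLHE40 and 39 H3K27ac regions. The nearest to TRIB2 were PTAFR (1.66) and URB2 (2.41), to HHEX FAM219A (1.84) and SCG3 (1.90), and to ALDH1A2 TMC1 (2.80) and FAAH (3.32). With 3 lists, this likeness says only that the windows hold similar numbers and strengths.

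The T-cell label was checked on H3K27ac at marker genes. Regions past a −log10 q of 5 were found in 9 of 10 T-cell genes, 0 of 4 B-cell genes, 1 of 4 myeloid genes and 1 of 4 erythroid genes, beside 55.0% of protein-coding gene records.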

How the data were processed

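Jurkat ChIP-seq regions of 3 control-lentivirus groups of 2 samples were used. Per the submitters' processing notes, bcl2fastq 2.20, MACS2 and hg38 were named; the aligner, filters and use of input are not given in the sources used here. Per the labels, the GATA3 and BHLHE40 lists were kept at an irreproducible discovery rate (IDR) of 0.05 and the H3K27ac list was pooled. The deposited score runs from 540 to 1000 in the factor lists, where 540 matches an IDR of 0.05 and 830 one of 0.01. The signal value and the −log10 q per peak are the authors' deposited values; the sources do not say what the signal value is measured against.

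Regions overlapping the RefSeq gene record (GRCh38.p14) plus 50 kb on each side were counted, for the 4 genes and for all 20050 protein-coding genes. Regions were shared when they overlapped by at least 1 bp. Positions are 1-based. The RefSeq table gives gene records without exons, so a summit inside a record may be exonic or intronic. Shares have exact 95% binomial intervals (Clopper-Pearson). Up to 4 of the strongest factor regions and 3 of the strongest H3K27ac regions per window are named, with the places where all 3 lists overlap if 6 or fewer, and the 2 genes most like each member. Other regions were named where they meet a start or bear on a stated count. The members and lists were chosen with earlier results of these data known. Windows of 10, 100 and 150 kb, stricter score and q thresholds, other definitions of overlap and all gene records as background were tried. The counting and overlap functions were first checked on simulated regions. A planned motif search under summits was not run, since no genome sequence was used here, and letters were searched in RefSeq start sequences. The software was scipy 1.17.1, matplotlib 3.10.9, pandas 2.3.3 and numpy 2.4.6 under Python 3.11.15.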

Additional observations from a re-analysis of the deposited data

How the results depend on the processing

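Of 108 alternative values over 32 results, 76 stayed within 1.5 times the reported count, within its interval or within 10 percentile points, and 32 moved beyond that. The intervals of the shares are wide, so a share could shift and still count as having stayed. With the factor summit required inside an H3K27ac region, the overlap fell from 50.0% to 38.6% for GATA3. For BHLHE40 it fell from 64.3% to 50.0%. A window of 150 kb on each side, added after seeing the data, raised the sums to 82 GATA3, 49 BHLHE40 and 162 H3K27ac regions. A −log10 q threshold of 5 for H3K27ac left 22 of 86 regions (25.6%, beside 25.1% of the whole list), none of them at ALDH1A2. It lowered the overlap to 27.3% of GATA3 and 39.3% of BHLHE40 regions, beside 33.4% and 60.2% of the whole lists. The other 26 values that moved belong to single genes; 8 of them are percentiles that rose with all gene records as background, none of them those of ARID5B, and the others followed the width of the window or the −log10 q threshold. No paired analysis was possible because the peak lists give no values by sample. Leaving out a replicate was not run for the same reason. Sequencing depth is unknown, so weak regions may be missing from any list.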

Other observations

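The windows end 50 kb from the gene, and the regions on either side of that limit were recorded. The nearest factor region outside lay over 100 kb away at ALDH1A2 and TRIB2, at 53.9 kb at ARID5B (GATA3, signal value 9.29) and at 60.4 kb at HHEX (GATA3, signal value 26.0). At ARID5B the stretch from 50 to 150 kb before the outer start was then examined, chosen after its values were seen. It held regions of both factors with higher signal values than any inside the 4 windows. The BHLHE40 region at chr10:61763055-61766325, with its summit 135.9 kb before the ARID5B record and inside the record of CABCOCO1, had a signal value of 148.7 and ranked 9 of 26205. The GATA3 region at chr10:61764429-61766232 had a signal value of 95.9 and ranked 293 of 29009, with its summit 21 bp away. The H3K27ac region at chr10:61765086-61765896 had a −log10 q of 222.5, above the 100.1 at the ARID5B start. A neighbouring GATA3 region at chr10:61760369-61763134 had a signal value of 79.9 (rank 500). Further shared places lay 123.4 and 86.0 kb before ARID5B, with GATA3 signal values of 35.6 and 66.5 and BHLHE40 signal values of 26.5 and 31.6. Beyond the other end of ARID5B, 86.2 kb away, the BHLHE40 region at chr10:62183113-62184612 had a signal value of 55.0 (rank 285), also above every BHLHE40 region of the 4 windows. The upstream places lie in or beside CABCOCO1 and the noncoding gene LINC02625, and the lists do not say on which gene they act.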
